A study of Homo sapiens with 16 samples.

Results

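The 35 genes described here encode subunits of integrins and laminins, and were taken as a list of gene symbols and matched through GENCODE to the identifiers of the deposited count table. All 35 were found among its 60649 identifiers. They comprise 25 integrin subunits, of which 17 are alpha and 8 beta subunits, and 10 laminin chains, of which 5 are alpha, 3 beta and 2 gamma chains. The counts came from ASC52telo, a line of adipose mesenchymal stem cells (MSCs) immortalized with telomerase, sequenced as poly(A) RNA in 16 libraries, 4 replicates in each of 4 groups. Young MSCs without additions are MmC-/GDF11-, and MmC-/GDF11+ are young MSCs that received recombinant growth differentiation factor 11 (GDF11) at 10 ng/mL. MmC+/GDF11- cells were made senescent with the DNA alkylating agent mitomycin C (MmC, 1.5 µg/mL for 18 h), and MmC+/GDF11+ cells received both, GDF11 being added during the 10 days after MmC. All 4 groups therefore share the immortalized, wild-type background, the serum-containing medium and 1 cell line, so the replicates are cultures or samples of that line and not of different donors. The paper calls them biological replicates, but no source states how they were separated. The p-values measure the spread between these samples only. The authors name batch effects from technical issues as a limitation, without saying which libraries they concern. The main fit used below has no term for a batch or for the replicate number.

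Integrins are receptors that span the cell membrane, each made of 1 alpha and 1 beta subunit, and the pairing decides which matrix protein is bound: collagens, laminins, proteins with an RGD tripeptide such as fibronectin and vitronectin, or counter-receptors on other cells. Laminins are secreted heterotrimers of 1 alpha, 1 beta and 1 gamma chain that form the sheet-like network of basement membranes. In stromal cells the main integrins share the beta1 subunit, and the fibroblast and vascular laminins are built around the alpha4 and gamma1 chains.

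The total count lay between 71275337 and 144204979 per library. The markers NT5E, THY1, ENG, CD44 and PDGFRB of MSCs were present in every library, with a summed level of 3338 to 3981 CPM, the count of reads scaled to a fixed library total. KRT5 had a median of 0 CPM and EPCAM a highest level of 0.0583 CPM, whereas KRT8 and KRT18, which cultured stromal cells also make, were present. Libraries numbered 1 stood apart in many members, as given beside the results. Same-numbered libraries deviated together from their group means in 3 of the pairwise comparisons, and for replicates 1, 2 and 4 in that of MmC with GDF11. CPM values below are scaled by the trimmed mean of M-values (TMM), and FPKM, the CPM divided by the exon length in kilobases, is used wherever 1 gene is compared with another. In each sentence that lists 4 values for a group, they stand in the order of replicates 1 to 4. A gene passed the test where the Benjamini-Hochberg adjusted p of edgeR's quasi-likelihood test, over all 19103 genes tested, was under 0.05. All adjusted p-values below are of this kind unless another fit is named, fold changes are given as log2 with the standard error (SE), and values with ± in CPM are SD over n = 4.

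Of the 35 members, 33 passed the filter on low counts. ITGA8, the alpha8 subunit of kidney mesenchyme and smooth muscle, had 0 to 8 counts per library and ITGB6, the epithelial partner of alphaV, also had 0 to 8, so neither was tested. ITGA2B, ITGA9, ITGAL, ITGAM and LAMC3 passed only with the help of libraries exposed to MmC, and 28 members would have passed on the young libraries alone.

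Upstream sequences are shown for 4 members whose RNA changed after MmC: the neighbours ITGA1 and ITGA2 on chromosome 5, which both rose, LAMC1, the most abundant laminin chain per length, which rose, and ITGA6, which fell. Each is the stretch of 250 bases before the RefSeq transcript start on the + strand (GRCh38.p14), in lower case, with matches to any of 4 short motif words in capitals: the AP-1 word TGANTCA, the TEAD word GGAATG, the TATA box word TATAAA and the GC box word GGGCGG, each searched on both strands, with overlaps between words allowed.
ITGA1, chr5:52787666-52787915: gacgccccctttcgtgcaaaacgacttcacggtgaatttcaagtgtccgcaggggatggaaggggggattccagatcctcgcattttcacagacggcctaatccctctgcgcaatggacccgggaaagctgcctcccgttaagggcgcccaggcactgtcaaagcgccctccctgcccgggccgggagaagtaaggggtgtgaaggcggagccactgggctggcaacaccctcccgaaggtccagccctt
ITGA2, chr5:52989102-52989351: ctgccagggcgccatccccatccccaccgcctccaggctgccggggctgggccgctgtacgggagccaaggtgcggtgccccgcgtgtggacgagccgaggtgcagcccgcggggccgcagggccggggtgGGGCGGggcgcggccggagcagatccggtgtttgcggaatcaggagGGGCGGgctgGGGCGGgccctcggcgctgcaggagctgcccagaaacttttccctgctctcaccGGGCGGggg
LAMC1, chr1:183023170-183023419: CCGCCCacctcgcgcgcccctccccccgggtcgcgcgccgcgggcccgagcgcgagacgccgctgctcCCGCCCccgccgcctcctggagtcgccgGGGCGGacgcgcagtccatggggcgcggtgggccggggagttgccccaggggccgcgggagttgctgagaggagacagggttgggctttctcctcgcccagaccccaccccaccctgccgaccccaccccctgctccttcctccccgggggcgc
ITGA6, chr2:172427086-172427335: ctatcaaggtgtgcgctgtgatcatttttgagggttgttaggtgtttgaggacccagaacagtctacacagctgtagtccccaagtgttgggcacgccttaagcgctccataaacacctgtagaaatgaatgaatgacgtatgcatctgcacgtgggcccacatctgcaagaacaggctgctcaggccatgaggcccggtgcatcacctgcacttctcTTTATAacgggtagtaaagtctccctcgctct
The window of ITGA2 holds 4 GC box words and that of LAMC1 holds 3, ITGA6 holds 1 TATA word read on the opposite strand, and ITGA1 holds none of the 4 words. A window was at hand for 25 members. The GC box word occurred in 13 of the 25, the TEAD word in 4, the AP-1 word in 1 (LAMA3) and the TATA word in 1 (ITGA6). Over all 35116 windows of this length the shares were 42.6%, 11.9%, 6.57% and 10.7%, in the same order. The median GC content was 62.0% over the members and 58.0% over all windows. Such a match is a description of letters and no evidence of binding. ITGA3, ITGA7, ITGA9, ITGAL, ITGAX, ITGB2, ITGB3, ITGB4, LAMA1 and LAMC3 have no window here.

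Scaled for exon length, the 2 most abundant members were ITGB1, the beta1 subunit shared by the collagen, laminin and fibronectin receptors, with a mean of 149 FPKM over the 16 libraries, and LAMC1, the gamma1 chain found in most laminins, with 117 FPKM. They were followed by ITGA5 (71.7 FPKM), the alpha subunit of the classical fibronectin receptor, and by ITGB5 (56.5 FPKM) and LAMB2 (56.2 FPKM), which lay close together. LAMA4, LAMB1, ITGA7 and ITGA3 had 43.6, 32.0, 28.0 and 23.8 FPKM. ITGAV had 12.0 FPKM and LAMA5 8.88 FPKM. The list ended with the leukocyte subunits, ITGA9, LAMC3, ITGA8 and ITGB6, with ITGB4 and ITGA2B among them, none above 0.116 FPKM, whereas ITGAE, also a leukocyte subunit, had 1.69 FPKM. These laminin levels show LAMA4 as the leading alpha chain, LAMB2 and LAMB1 as the leading beta chains and LAMC1 as the leading gamma chain. Which of the leading beta chains stands first depends on the length used. The union of exons is 18592 bases for LAMB1 and 6865 for LAMB2, and their longest transcripts are 6737 and 5692 bases. On the longest transcript, the mean level of LAMB1 lay above that of LAMB2.

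**Figure D1:**
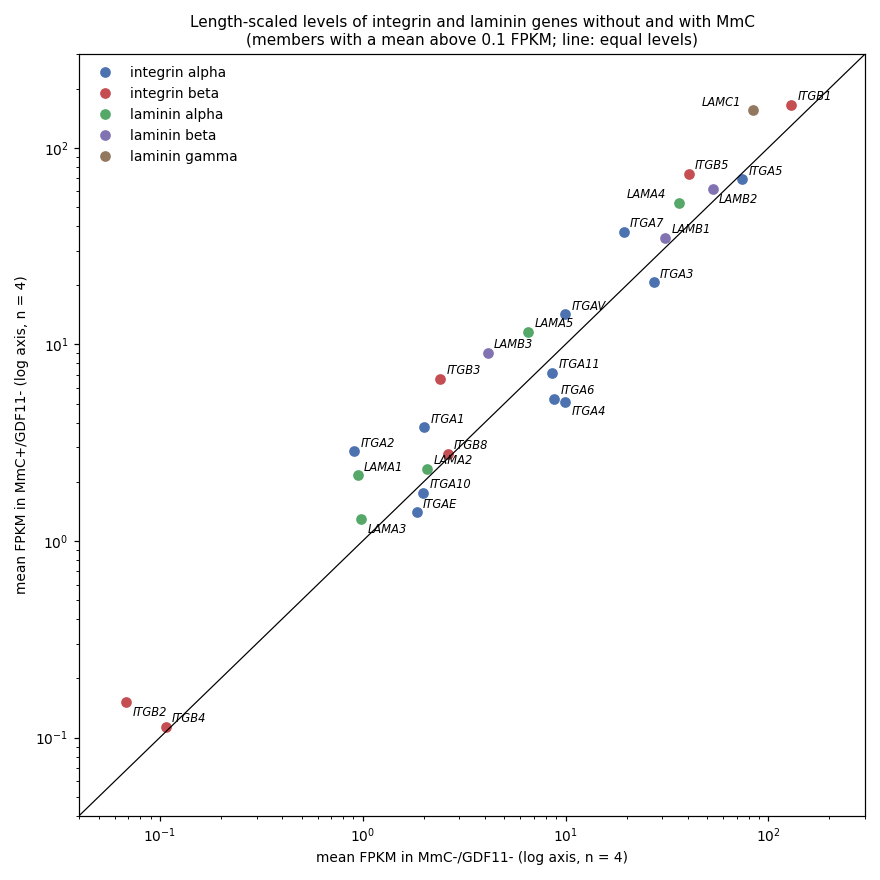
Each point is 1 member with a mean above 0.1 FPKM, placed by its mean FPKM in MmC-/GDF11- (horizontal, log axis) and in MmC+/GDF11- (vertical, log axis), n = 4 libraries each, coloured by subunit family, with the line marking equal levels. ITGB1 and LAMC1 lie at the upper end, and ITGA2, ITGB3 and LAMA1 lie farthest above the line.

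Exposure to MmC without GDF11, the comparison of senescent with young MSCs, raised 16 of the 33 tested members and lowered 3, while 14 did not pass the test. Over all genes 22.9% rose and 22.4% fell. The 4 senescent libraries lay wholly above the 4 young ones for 12 members and wholly below for 0, against 19.1% and 18.2% of all genes. ITGAM and LAMC3, among these 12, passed the filter only through senescent libraries. The median log2 change of the members was 0.51, and that of all genes was -0.01. The median of the members includes the 5 that passed the filter only with the help of senescent libraries. Among the 28 members that would have passed the filter on young libraries alone, 13 rose and 3 fell. In these bulk samples, fewer cells that express a gene and less of its RNA per cell cannot be told apart.

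With GDF11 present in both arms, MmC raised 17 members and lowered 4, against 23.4% and 23.3% of all genes. Among the 28 members that would have passed the filter on young libraries alone, 14 rose and 4 fell. The senescent libraries lay wholly above the young ones for 17 members and wholly below for 3, against 20.2% and 21.2% of all genes. ITGA9, ITGAL, ITGAM and LAMC3, among these 17, passed the filter only with the help of senescent libraries. The median log2 change of the members was 0.59, which includes these genes and ITGA2B. The arms with GDF11 share no library with the former comparison, but both comparisons come from 1 fit with a shared estimate of the spread. Same-numbered libraries with and without GDF11 also deviated together, with correlations of 0.662 to 0.927 in senescent and 0.138 to 0.707 in young MSCs. The comparisons are therefore not independent of each other. The same 16 genes rose in both comparisons (20.3% of all genes did), namely ITGA1, ITGA2, ITGA7, ITGAL, ITGAM, ITGAX, ITGB1, ITGB2, ITGB3, ITGB5, LAMA1, LAMA4, LAMA5, LAMB3, LAMC1 and LAMC3, of which ITGAL, ITGAM and LAMC3 passed the filter only through senescent libraries. ITGA3, ITGA4 and ITGA6 fell in both (19.9% of all genes did). ITGAV and ITGAE passed only in the comparison with GDF11, and the test of the interaction passed for neither. A fit with the replicate number as a block, in which the numbers pair the libraries, called ITGAV (adjusted p = 0.000394), LAMA3 (0.00914) and ITGAE (0.0140) as well for MmC without GDF11, which gave 18 higher and 4 lower.

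Leaving out the replicates numbered 1 from all groups gave 19 higher and 5 lower for MmC without GDF11 and 17 higher and 5 lower with GDF11. ITGAV, LAMA3 and LAMB2 were then called higher, and ITGA5 and ITGAE lower, for MmC without GDF11. Leaving out the replicates numbered 2, 3 or 4 gave 12 higher each and 2, 1 and 1 lower without GDF11. Over all genes, 4380 rose and 4275 fell in this comparison with every library. Without the replicates numbered 1 it was 5059 and 4945. Without those numbered 2, 3 or 4 it was 3249 and 3037, 2885 and 2605, and 3556 and 3186. The counts thus depended on the libraries fitted, among the members as among all genes.

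**Figure D2:**
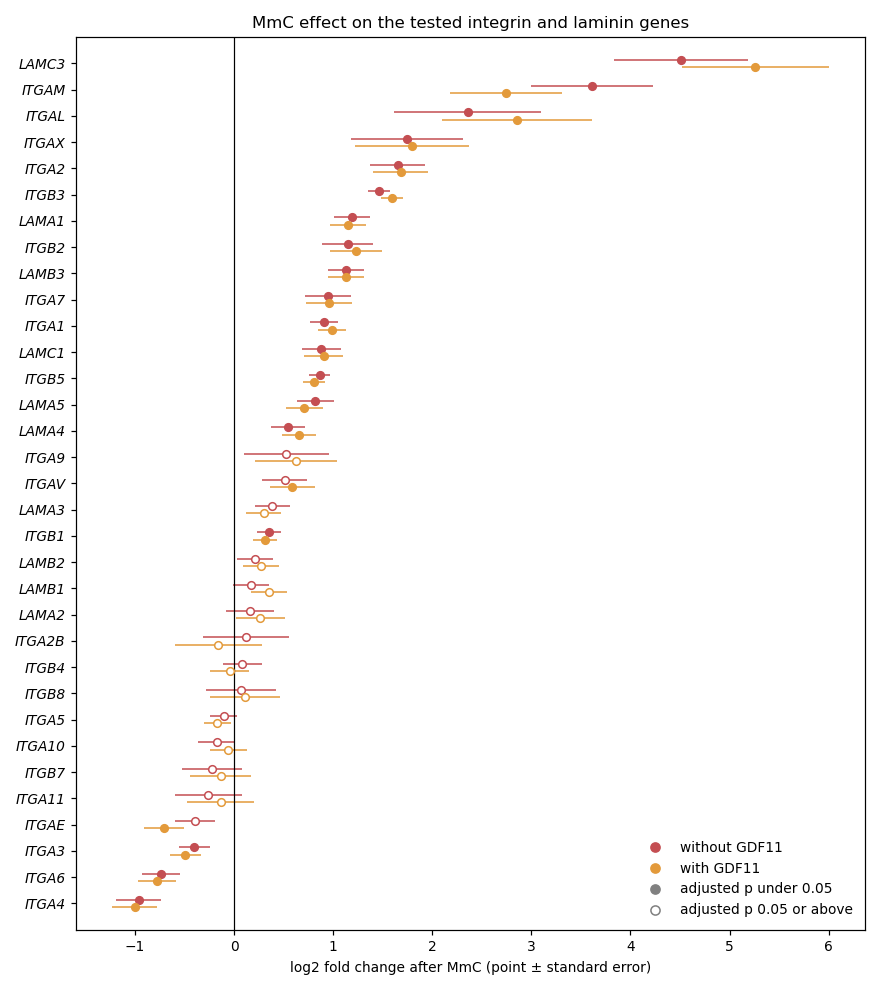
Log2 fold change of each of the 33 tested members after MmC (horizontal axis), without GDF11 in red and with GDF11 in orange, as point ± SE, filled where the adjusted p was under 0.05 and ordered by the change without GDF11. The change lies right of 0 for the 16 members that rose in both comparisons, from ITGB1 (0.35 and 0.31) to LAMC3 (4.51 and 5.26), and left of 0 for ITGA3, ITGA6 and ITGA4.

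Among the alpha subunits that bind collagens, ITGA1 and ITGA2 rose and ITGA10 and ITGA11 did not pass the test. ITGA1 (ENSG00000213949.10, chr5:52787916-52959209, + strand of hg38), which pairs with beta1 to bind mainly collagen IV, had 40.7, 25.8, 39.5 and 43.1 CPM in young MSCs, 38.1, 30.2, 34.6 and 41.3 in young MSCs with GDF11, 66.3, 65.1, 73.2 and 75.8 in senescent MSCs and 64.6, 64.7, 77.6 and 78.96 in senescent MSCs with GDF11. The 8 senescent libraries lay above all 8 young ones, with log2 changes of 0.91 ± 0.14 (adjusted p = 9.4e-05) without and 0.99 ± 0.14 (adjusted p = 4.6e-05) with GDF11. ITGA2 (ENSG00000164171.11, chr5:52989340-53094779, + strand), which pairs with beta1 to bind collagen I, lies next to it and had 6.07, 5.12, 8.14 and 9.38 CPM in young MSCs, 6.53, 6.17, 6.17 and 9.32 in young MSCs with GDF11, 14, 26.5, 29.2 and 20.5 in senescent MSCs and 13.3, 21.9, 31.8 and 23.3 in senescent MSCs with GDF11. ITGA2 rose by 1.65 ± 0.28 (adjusted p = 0.00021) and 1.68 ± 0.28 (adjusted p = 0.00018), a 3.14-fold and a 3.21-fold change, with no overlap although the MmC+ libraries numbered 1 were the lowest of their groups. ITGA10, a cartilage collagen receptor, had means of 12.4 and 11.5 CPM in young MSCs without and with GDF11 and of 11.0 CPM in both senescent groups, with adjusted p = 0.47 and 0.82 for MmC without and with GDF11. ITGA11, the collagen I receptor of fibroblasts, had 176, 62.9, 74.2 and 60.3 CPM in young MSCs, 135, 64.7, 71.3 and 60.1 in young MSCs with GDF11, 110.3, 65.3, 71.6 and 64 in senescent MSCs and 96.1, 62.2, 72.5 and 70.5 in senescent MSCs with GDF11. ITGA11 thus varied mostly with the replicate number, libraries numbered 1 being the highest of each group, and its log2 changes of -0.26 ± 0.34 and -0.14 ± 0.34 became 0.03 and 0.07 without the replicates numbered 1. Of the exon bases of ITGA1, 7.47% are shared with ITGA2-AS1 on the opposite strand and 2.69% with PELO on the same strand.

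The 3 alpha subunits that bind laminins moved in different directions: ITGA7 rose and ITGA3 and ITGA6 fell. ITGA7 (ENSG00000135424.18, chr12:55684568-55716404, - strand), the laminin receptor of muscle and pericytes, had 155, 174, 159 and 215 CPM in young MSCs, 126, 199, 168 and 191 in young MSCs with GDF11, 480.5, 280.5, 265 and 331 in senescent MSCs and 479, 254, 238 and 355 in senescent MSCs with GDF11. Its log2 change was 0.95 ± 0.23 (adjusted p = 0.0035) without and 0.96 ± 0.23 (adjusted p = 0.0032) with GDF11, without overlap, and the libraries numbered 1 were the lowest young and the highest senescent ones. ITGA3 (ENSG00000005884.18, chr17:50055968-50090481, + strand), which with beta1 binds laminins with alpha3 and alpha5 chains, had 206, 287, 268 and 308 CPM in young MSCs, 242, 300.4, 258 and 285 in young MSCs with GDF11, 249, 205, 193 and 163 in senescent MSCs and 242, 200.4, 164 and 166 in senescent MSCs with GDF11. ITGA3 fell by 0.40 ± 0.155 on the log2 scale (adjusted p = 0.044), with overlapping libraries, and by 0.49 ± 0.155 with GDF11 (adjusted p = 0.016). The groups with GDF11 were barely apart, with the lowest young library at 242.4 CPM and the highest senescent one at 242.1 CPM. The call of ITGA3 without GDF11 was lost when any of 11 single libraries was left out, with adjusted p between 0.0525 and 0.147, and also with RLE scaling (0.0566) and in a fit of the 8 libraries alone (0.0773). With GDF11 it was lost without MmC-/GDF11+ replicate 2 (0.0528) or MmC+/GDF11+ replicates 3 (0.0623) or 4 (0.0597).

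ITGA6 (ENSG00000091409.16, chr2:172427354-172506459, + strand), a laminin receptor subunit that pairs with beta1 or beta4, had 54.5, 50.1, 63.9 and 66.7 CPM in young MSCs, 68.95, 61.9, 50.95 and 67.6 in young MSCs with GDF11, 50.7, 29.3, 30.5 and 30.9 in senescent MSCs and 50.9, 33.4, 31.7 and 29.7 in senescent MSCs with GDF11. It fell by 0.73 ± 0.19 (adjusted p = 0.0056) and by 0.78 ± 0.19 (adjusted p = 0.0038). Replicates 2 to 4 of both MmC+ groups lay between 29.3 and 33.4 CPM, while their replicates 1 had 50.7 and 50.9 CPM, close to the lowest young libraries. With GDF11 the groups were barely apart, at 50.95 CPM in the lowest young and 50.92 CPM in the highest senescent library. Of the RNA of all alpha subunits per exon length, ITGA7 held 11.7 ± 1.4% in young and 21.9 ± 2.7% in senescent MSCs without GDF11 (SD, n = 4), ITGA3 held 16.5 ± 2.3% and 12.3 ± 1.1%, and ITGA6 held 5.32 ± 0.56% and 3.10 ± 0.28%. ITGA7 thus stood below ITGA3 in young MSCs and above it in senescent ones by this measure. For ITGA7, 10.7% of the 31-base words of its exons also occur on alternate contigs of the genome, where reads with several alignments may have been lost.

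Of the alpha subunits that recognise RGD-containing ligands, ITGAV alone passed the test, with GDF11. ITGA5 (ENSG00000161638.11, chr12:54395261-54419266, - strand) had 490.0, 598, 556 and 553 CPM in young MSCs, 551, 585, 547 and 554 in young MSCs with GDF11, 643, 495, 473 and 431 in senescent MSCs and 644, 464, 436 and 444 in senescent MSCs with GDF11. Its log2 changes were -0.11 ± 0.14 (adjusted p = 0.56) and -0.17 ± 0.14 (adjusted p = 0.32), with the libraries numbered 1 the highest of both MmC+ groups. Without the replicates numbered 1 its change was -0.29 (adjusted p = 0.015) and -0.32 with GDF11 (adjusted p = 0.0074), and without MmC+/GDF11+ replicate 1 alone it was -0.31 with GDF11 (adjusted p = 0.045). ITGA5 held 45.1 ± 3.7% of the alpha subunit RNA per exon length in MmC-/GDF11- and 41.0 ± 2.0% in MmC+/GDF11-, more than any other alpha subunit in each group.

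ITGAV (ENSG00000138448.12, chr2:186590010-186680901, + strand), the subunit of the vitronectin and latent TGF-beta receptors, had 260.1, 114, 189.6 and 207 CPM in young MSCs, 235, 156, 152 and 198 in young MSCs with GDF11, 359, 222, 255 and 262 in senescent MSCs and 356, 213, 276 and 268 in senescent MSCs with GDF11. The log2 change was 0.51 ± 0.23 (adjusted p = 0.079) without and 0.59 ± 0.23 (adjusted p = 0.045) with GDF11, and in all 4 same-number pairs of both comparisons the senescent library was the higher one, although the groups overlap because the libraries numbered 1 were high in every group. Without GDF11 it was called when MmC-/GDF11- replicate 1 was left out (log2 0.70, adjusted p = 0.023) and with the replicate number as a block (0.54, adjusted p = 0.00039). The call with GDF11 was lost without any of 10 single libraries, with adjusted p between 0.0507 and 0.132. ITGA2B, the platelet alpha subunit, had means of 0.102 to 0.116 CPM in the 4 groups and adjusted p = 0.84 and 0.79.

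ITGA4 and ITGA9 form a pair of related alpha subunits that bind VCAM1, fibronectin and tenascin. ITGA4 (ENSG00000115232.14, chr2:181457202-181538940, + strand) had 114, 78.4, 111 and 121 CPM in young MSCs, 133, 103, 93.5 and 123 in young MSCs with GDF11, 79.5, 38.3, 45.5 and 54.7 in senescent MSCs and 79.5, 42.5, 48.02 and 55.8 in senescent MSCs with GDF11. It fell by 0.96 ± 0.23 on the log2 scale (0.512 of the young level, adjusted p = 0.0029) and by 1.00 ± 0.23 with GDF11 (0.499 of the young level, adjusted p = 0.0022). The groups without GDF11 overlapped through MmC-/GDF11- replicate 2 and MmC+/GDF11- replicate 1, and those with GDF11 did not overlap. Of the exon bases of ITGA4, 26.4% lie opposite those of CERKL, and the strand setting of the counting is not given in the sources used here. ITGA9 stayed between 0.0193 and 0.160 CPM, with adjusted p = 0.33 and 0.23.

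The alpha subunits of leukocyte integrins were at very low levels, and were higher in senescent libraries for ITGAM, ITGAL and ITGAX. ITGAM and ITGAL reached the filter on low counts in 0 of the 8 young libraries, so they were tested only because the senescent ones were higher, and their calls are no support for a rise. ITGAM, the alpha subunit of the complement receptor CR3 of myeloid cells, had 1, 0, 5 and 0 counts in young MSCs, 2, 4, 2 and 2 in young MSCs with GDF11, 18, 19, 22 and 23 in senescent MSCs and 17, 20, 21 and 30 in senescent MSCs with GDF11. The ratio of summed counts per scaled library was 13.4 without GDF11 (95% interval for counting error 5.90 to 37.6) and 6.72 with GDF11 (3.49 to 14.5). ITGAL, the alpha subunit of LFA-1, summed to 9 and 7 counts in the young groups and to 49 and 68 in the senescent ones, a ratio of 5.33 (2.59 to 12.4) and of 7.42 (3.41 to 19.1). Its call without GDF11 was lost without MmC+/GDF11- replicate 4, which held 26 of the 49 counts (adjusted p = 0.085). Its fitted log2 change without GDF11, 2.36, was 3.53 without MmC-/GDF11- replicate 1, and that of ITGAM, 3.61, was 5.52 without MmC-/GDF11- replicate 3, the library with 5 of its 6 counts.

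ITGAX, the alpha subunit of CR4, had 0.02599, 0.176, 0.197 and 0.106 CPM in young MSCs, 0.0139, 0.0805, 0.166 and 0.168 in young MSCs with GDF11, 0.182, 0.723, 0.502 and 0.311 in senescent MSCs and 0.178, 0.468, 0.491 and 0.373 in senescent MSCs with GDF11, and rose by 1.75 ± 0.56 (adjusted p = 0.019) and 1.80 ± 0.58 (adjusted p = 0.018). The groups overlapped without GDF11, and its call there was lost without MmC+/GDF11- replicate 2 (adjusted p = 0.069). ITGAE, which with beta7 binds E-cadherin, had 12.3, 14.5, 11.7 and 10.2 CPM in young MSCs, 15.9, 13.1, 16.5 and 11.8 in young MSCs with GDF11, 13.03, 7.97, 8.37 and 7.65 in senescent MSCs and 12.6, 7.44, 7.79 and 7.19 in senescent MSCs with GDF11. Its log2 change was -0.39 ± 0.20 (adjusted p = 0.12) without GDF11 and it fell by 0.71 ± 0.20 with GDF11 (adjusted p = 0.0088). Without MmC+/GDF11- replicate 1, the highest of its group, it also fell without GDF11 (by 0.59, adjusted p = 0.017).

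Other blood cell markers were read beside the leukocyte subunits, of which ITGAE fell with GDF11 and ITGB7 did not pass the test. PTPRC, CD14 and CD3E together reached 1.61 to 2.625 CPM in the young libraries and 2.45 to 5.36 CPM in the senescent ones. CD14 rose (log2 0.79, adjusted p = 0.030, and 0.96, adjusted p = 0.011), and PTPRC had log2 changes of 0.63 (adjusted p = 0.060) and 0.90 (adjusted p = 0.0099). CD3E, a T cell marker, had a median of 0.00507 CPM over the libraries and a highest value of 0.0699 CPM. The part of other cells in the leukocyte integrin values was not tested.

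Among the beta subunits ITGB1, ITGB2, ITGB3 and ITGB5 rose in both comparisons, and none fell. ITGB1 (ENSG00000150093.20, chr10:32887273-33005792, - strand) had 2098, 1636, 2002 and 1827 CPM in young MSCs, 2160, 1752, 1929 and 1972 in young MSCs with GDF11, 2701, 2200, 2518 and 2231 in senescent MSCs and 2717, 2228, 2573 and 2185 in senescent MSCs with GDF11. The senescent libraries lay above the young ones of the same GDF11 status without overlap, but the change was small, at 0.35 ± 0.12 (1.28-fold, adjusted p = 0.024) and 0.31 ± 0.12 (1.24-fold, adjusted p = 0.041). Its call without GDF11 was lost when MmC+/GDF11- replicate 1 (0.0688) or 3 (0.0622) or MmC-/GDF11- replicate 2 (0.0667) was left out. With GDF11 it was lost without MmC+/GDF11+ replicates 1 (0.109) or 3 (0.0865), MmC-/GDF11+ replicates 2 (0.1004), 3 (0.0735) or 4 (0.0606), or MmC+/GDF11- replicate 3 (0.0537). In a fit of the 8 libraries of each comparison alone, the adjusted p of ITGB1 was 0.0518 and 0.0517, and with no filter on low counts it was 0.0516 with GDF11.

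The partners of alphaV responded unequally. ITGB3 (ENSG00000259207.9, chr17:47253827-47313743, + strand), which forms the vitronectin receptor with alphaV, had 18.9, 14.4, 15.6 and 17.1 CPM in young MSCs, 16.7, 13.3, 14.5 and 15.02 in young MSCs with GDF11, 42.7, 49.8, 48.3 and 41.3 in senescent MSCs and 40.8, 46.7, 50.6 and 41.01 in senescent MSCs with GDF11. It had the lowest adjusted p of all members: the log2 change was 1.46 ± 0.11 (2.76-fold, adjusted p = 1.1e-07) without and 1.59 ± 0.11 (3.01-fold, adjusted p = 4.7e-08) with GDF11, and the lowest senescent library exceeded the highest young one by more than the whole range of the young libraries. ITGB5 (ENSG00000082781.12, chr3:124761948-124901418, - strand), a further vitronectin receptor subunit, had 269, 265, 254 and 268 CPM in young MSCs, 282, 269, 242 and 265 in young MSCs with GDF11, 463, 568, 497 and 390.2 in senescent MSCs and 466, 480.4, 514 and 395 in senescent MSCs with GDF11. Its young libraries lay within 242 to 282 CPM and all senescent libraries at 390.2 CPM or above, with log2 changes of 0.86 ± 0.11 (adjusted p = 1.7e-05) and 0.81 ± 0.11 (adjusted p = 3.0e-05). ITGB8, which with alphaV activates latent TGF-beta, had 26.2, 29.2, 45.4 and 58.6 CPM in young MSCs, 22.7, 35.6, 43.6 and 59.04 in young MSCs with GDF11, 38.3, 27.9, 35.7 and 65.8 in senescent MSCs and 34.5, 33.01, 34.5 and 71.5 in senescent MSCs with GDF11, and log2 changes of 0.07 ± 0.35 and 0.11 ± 0.35 (adjusted p = 0.88 and 0.83). In ITGB8 replicate 4 was the highest library of every group. ITGB3 shares 33.2% of its exon bases with a protein-coding gene of the same strand, ENSG00000259753, so reads there could not be assigned to 1 of the 2 genes by position alone.

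ITGB2 (ENSG00000160255.18, chr21:44885953-44931989, - strand), the common beta subunit of the leukocyte integrins, had 0.611, 0.466, 0.459 and 0.463 CPM in young MSCs, 0.417, 0.697, 0.371 and 0.491 in young MSCs with GDF11, 1.57, 1.27, 0.927 and 0.645 in senescent MSCs and 1.395, 0.986, 1.21 and 1.05 in senescent MSCs with GDF11. It rose by 1.15 ± 0.26 (adjusted p = 0.0021) and 1.23 ± 0.26 (adjusted p = 0.0013), without overlap, at no more than 1.57 CPM in any library. ITGB4, the hemidesmosome partner of alpha6, had means of 0.725 to 0.831 CPM in the 4 groups (adjusted p = 0.76 and 0.87), and ITGB7, the partner of alpha4 and alphaE in lymphocytes, had means of 0.1499 to 0.204 CPM (adjusted p = 0.57 and 0.74). Per exon length, ITGB1 held 73.8 ± 2.2% of the beta subunit RNA in MmC-/GDF11- and 66.5 ± 3.9% in MmC+/GDF11-, ITGB5 held 23.2 ± 2.1% and 29.6 ± 4.0%, and ITGB3 held 1.38 ± 0.10% and 2.68 ± 0.24%. Of the exon bases of ITGB7, 42.3% lie opposite those of ZNF740.

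**Figure D3:**
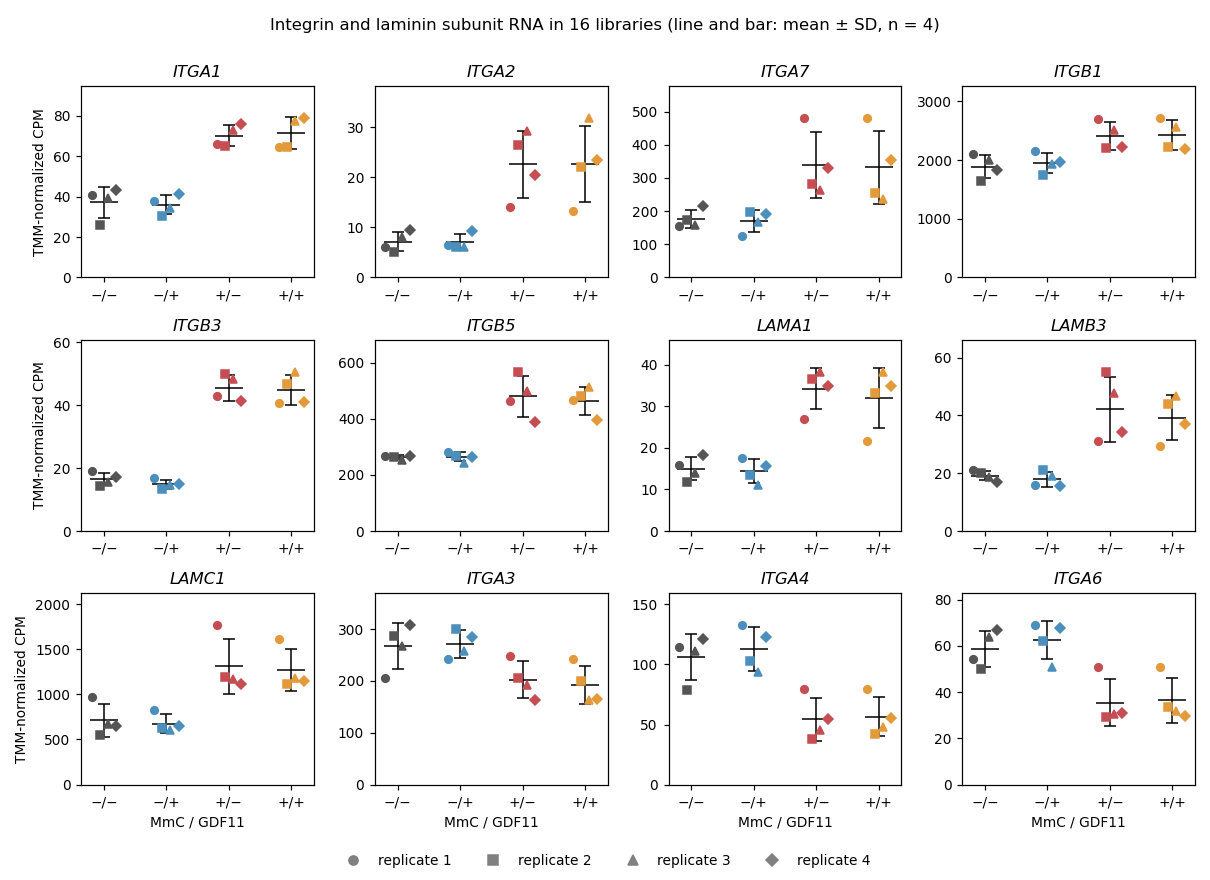
TMM-normalized CPM (vertical axis, from 0) of 12 members in the 16 libraries, grouped by MmC and GDF11 status (horizontal axis, MmC sign before GDF11 sign), with the replicate number as marker shape and mean ± SD (n = 4) in black. The senescent libraries lie above the young ones for ITGA1, ITGA2, ITGA7, ITGB1, ITGB3, ITGB5, LAMA1, LAMB3 and LAMC1, and below or overlapping them for ITGA3, ITGA4 and ITGA6, where replicate 1 is the highest MmC+ library.

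Of the laminin alpha chains LAMA1, LAMA4 and LAMA5 rose. LAMA4 (ENSG00000112769.20, chr6:112107931-112254939, - strand), the alpha chain of laminins in vessel walls, muscle and fat, had 577, 318, 420.1 and 414 CPM in young MSCs, 390.4, 376, 395 and 429.8 in young MSCs with GDF11, 759, 498, 566 and 698 in senescent MSCs and 666, 519.8, 563 and 759.6 in senescent MSCs with GDF11. Its log2 change was 0.54 ± 0.17 (adjusted p = 0.017), with overlap through MmC-/GDF11- replicate 1, and 0.66 ± 0.17 with GDF11 (adjusted p = 0.0054), without overlap. The call without GDF11 was lost without MmC-/GDF11- replicate 2 (adjusted p = 0.055). LAMA5 (ENSG00000130702.15, chr20:62307955-62367312, - strand), the alpha chain of most mature basement membranes, had 119, 78.9, 96.6 and 80.9 CPM in young MSCs, 101, 103, 93.1 and 79.01 in young MSCs with GDF11, 156, 208, 187 and 112 in senescent MSCs and 146, 158, 192 and 119.5 in senescent MSCs with GDF11. It rose by 0.82 ± 0.19 (adjusted p = 0.0020), with overlapping groups, and by 0.71 ± 0.19 with GDF11 (adjusted p = 0.0053), without overlap, with replicate 4 the lowest library of both MmC+ groups. Within the alpha chains, LAMA4 held 77.2 ± 1.0% of the RNA per exon length in MmC-/GDF11- and 74.7 ± 6.4% in MmC+/GDF11-, a difference smaller than the SD in the senescent group.

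LAMA1 (ENSG00000101680.15, chr18:6941742-7117797, - strand), the alpha chain of the early embryonic laminin, had 15.9, 11.8, 13.9 and 18.3 CPM in young MSCs, 17.5, 13.4, 11.1 and 15.7 in young MSCs with GDF11, 27.03, 36.6, 38.1 and 34.9 in senescent MSCs and 21.7, 33.1, 38.3 and 34.8 in senescent MSCs with GDF11. It rose by 1.19 ± 0.18 (2.28-fold, adjusted p = 9.4e-05) and 1.15 ± 0.18 (2.22-fold, adjusted p = 0.00012), without overlap, the MmC+ libraries numbered 1 being the lowest of their groups. LAMA2, the muscle and nerve alpha chain, had means of 54.98, 50.2, 61.4 and 60.3 CPM in the 4 groups in the order used above, and log2 changes of 0.16 ± 0.25 and 0.26 ± 0.25 (adjusted p = 0.63 and 0.40). LAMA3, the epithelial alpha chain, had means of 14.3, 14.6, 18.7 and 17.9 CPM, and log2 changes of 0.39 ± 0.18 and 0.30 ± 0.18 (adjusted p = 0.088 and 0.19). LAMA3 was called without GDF11 when MmC+/GDF11- replicate 1 (log2 0.48, adjusted p = 0.043), MmC+/GDF11+ replicate 1 (0.40, adjusted p = 0.042) or MmC-/GDF11- replicate 4 (0.54, adjusted p = 0.027) was left out, and with GDF11 without MmC+/GDF11+ replicate 1 (0.45, adjusted p = 0.034). For both LAMA2 and LAMA3 the senescent library was the higher one in all 4 same-number pairs of each comparison. Beside LAMA3, the sum of EPCAM, CDH1, KRT8, KRT18 and KRT5 was 102 to 165 CPM in young and 43.4 to 78.8 CPM in senescent libraries. KRT8 (log2 -1.04 and -1.13) and KRT18 (-1.47 and -1.66), which stromal cells also make, fell, whereas CDH1, the epithelial cadherin, had -0.12 (adjusted p = 0.68) and -0.33 (adjusted p = 0.24).

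Of the beta chains, LAMB3 rose and LAMB1 and LAMB2 did not pass the test. LAMB3 (ENSG00000196878.15, chr1:209614870-209652425, - strand), the beta chain of the epithelial laminin with alpha3, had 20.96, 19.9, 18.9 and 17.1 CPM in young MSCs, 16.1, 21.04, 19.1 and 15.5 in young MSCs with GDF11, 30.98, 55.1, 47.8 and 34.3 in senescent MSCs and 29.4, 43.9, 46.7 and 36.9 in senescent MSCs with GDF11. Its log2 changes were 1.13 ± 0.18 in both comparisons (adjusted p = 0.00011 in each), a 2.19-fold rise without overlap, with replicates 1 and 4 the lower libraries of both MmC+ groups. LAMB1 (ENSG00000091136.15, chr7:107923799-108003213, - strand), the widespread beta chain, had 813, 439.9, 523 and 528 CPM in young MSCs, 559, 469.9, 475 and 522 in young MSCs with GDF11, 803, 535, 576 and 684 in senescent MSCs and 765, 503, 588 and 734 in senescent MSCs with GDF11. Its log2 changes were 0.17 ± 0.18 (adjusted p = 0.47) and 0.35 ± 0.18 (adjusted p = 0.13), and library 1 was the highest of every group. LAMB2 (ENSG00000172037.14, chr3:49121114-49133118, - strand), the beta chain of kidney, synapse and vessel laminins, had 512, 328, 311 and 312 CPM in young MSCs, 364, 349, 339 and 312 in young MSCs with GDF11, 551, 388, 378 and 378 in senescent MSCs and 542, 334, 357 and 417 in senescent MSCs with GDF11. The changes of LAMB2 were 0.21 ± 0.18 (adjusted p = 0.36) and 0.28 ± 0.18 (adjusted p = 0.23), and without MmC-/GDF11- replicate 1, at 512 CPM, the change was 0.43 (adjusted p = 0.042). LAMB3 held 4.83 ± 0.86% of the beta chain RNA per exon length in MmC-/GDF11- and 8.86 ± 3.20% in MmC+/GDF11-.

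Of the gamma chains LAMC1 rose, and LAMC3 was tested only because of its counts in senescent libraries. LAMC1 (ENSG00000135862.6, chr1:183023420-183145592, + strand) had 975, 547, 673 and 648 CPM in young MSCs, 829, 623, 605 and 648 in young MSCs with GDF11, 1767, 1188, 1169 and 1111 in senescent MSCs and 1612, 1118, 1179 and 1150 in senescent MSCs with GDF11. Its log2 change was 0.88 ± 0.19 (1.84-fold, adjusted p = 0.0016) and 0.90 ± 0.19 (1.87-fold, adjusted p = 0.0013), and library 1 was the highest of each group without closing the gap between young and senescent libraries. LAMC3 (ENSG00000050555.19, chr9:131009174-131094473, + strand), a gamma chain of skin and nerve, had 0, 1, 1 and 0 counts in young MSCs, 1, 0, 0 and 0 in young MSCs with GDF11, 10, 24, 9 and 14 in senescent MSCs and 9, 22, 27 and 15 in senescent MSCs with GDF11. The ratio of its summed counts was 27.9 without GDF11 (57 against 2 counts, 95% counting interval 7.38 to 236) and 55.7 with GDF11 (73 against 1, 9.69 to 2231). LAMC3 reached the filter in 0 young and 5 senescent libraries, so its calls are no support for a rise. Its fitted log2 change with GDF11, 5.26, was 7.01 without MmC-/GDF11+ replicate 1, which held the only count of that group, and 4.40 with limma-voom. LAMC3 was therefore nearly undetected in young MSCs and still below 0.3 CPM in senescent ones.

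No member changed with added GDF11 by the test. In young MSCs, comparing MmC-/GDF11+ with MmC-/GDF11-, 0 of 33 members passed the test and 0 had an unadjusted p under 0.05, against 0.0% and 1.18% of all genes. DESeq2 and limma-voom also called 0 members there. The lowest unadjusted p was that of ITGB3 (0.178), whose log2 change was -0.15 ± 0.11. Its 4 same-number pairs had differences of -0.183, -0.113, -0.108 and -0.191. ITGAE followed, with 0.23 ± 0.20 (unadjusted p = 0.263). With the replicate number as a block, 0 members were called and 0 had an unadjusted p under 0.05, and the log2 changes were -0.15 ± 0.10 for ITGB3 (unadjusted p = 0.165) and 0.22 ± 0.14 for ITGAE (unadjusted p = 0.122). ITGB3, ITGA10 and ITGB7 were lower in the GDF11 library of all 4 same-number pairs, and 0 members were higher in all 4. The share of all genes with such pairs was not counted, so these pairs are no support for a change. The SE of the members had a median of 0.20 on the log2 scale without and of 0.134 with the block.

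In senescent MSCs, comparing MmC+/GDF11+ with MmC+/GDF11-, 0 of 33 members passed and 0 had an unadjusted p under 0.05, against 0.0% and 0.503% of all genes, and DESeq2 and limma-voom called 0. The lowest unadjusted p-values were those of ITGB7 (0.515, log2 change -0.20 ± 0.30) and LAMA5 (0.563, -0.11 ± 0.18). ITGAE and ITGB7 were lower and ITGB4 was higher in the GDF11 library of all 4 same-number pairs. Here too the share of all genes was not counted, and the pairs are no support for a change. With the replicate number as a block, 0 members were called or had an unadjusted p under 0.05, with a median SE of 0.134. The interaction, which tests whether the response to MmC differed with GDF11, passed for 0 members with edgeR, DESeq2 and limma-voom alike, 0 had an unadjusted p under 0.05, and over all genes the shares were 0.0% and 0.9%. Its log2 value was -0.32 ± 0.28 for ITGAE, 0.08 ± 0.32 for ITGAV and 0.13 ± 0.15 for ITGB3. A p-value above the threshold does not show that GDF11 was without effect.

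Further genes that work with integrins and laminins were counted beside them in 3 lists, with no test of the lists. Of 32 genes for cytoplasmic proteins that bind integrin tails or link them to actin, 3 rose and 14 fell after MmC without GDF11, and 3 rose and 15 fell with GDF11, with median log2 changes of -0.29 and -0.40, against 22.9% higher and 22.4% lower of all genes without GDF11 and 23.4% and 23.3% with it. FERMT3, TNS1 and TNS3 rose in both comparisons. TNS3, a tensin that links beta subunits to actin, went from 29.9 ± 4.6 CPM in MmC-/GDF11- to 101 ± 31 CPM in MmC+/GDF11- (log2 1.75, adjusted p = 2.9e-05), and TNS1 from 201 ± 23 to 256 ± 34 CPM (0.35, adjusted p = 0.012). TNS2, of the same family, fell from 131 ± 7 to 49.0 ± 4.7 CPM (-1.42, adjusted p = 2.5e-08). TGFB1I1, the paxillin-related protein Hic-5, fell from 142 ± 20 to 71.99 ± 14.33 CPM (-0.98, adjusted p = 7.9e-05).

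Among the falling genes of this group were those for the integrin activators and linkers FERMT1 and FERMT2 (kindlins), VCL (vinculin), PXN (paxillin), ZYX (zyxin), ILK, PARVB, FLNA and ACTN4, which fell in both comparisons. The adaptor genes thus had their median below 0, and the 23 tested integrin subunits had theirs at 0.35 and 0.31. Of these subunits, ITGA2B, ITGA9, ITGAL and ITGAM passed the filter on low counts only with the help of senescent libraries. Among the other subunits the middle value was lower, at 0.08 (ITGB4) without GDF11 and 0.11 (ITGB8) with it. The call of TNS1 without GDF11 was lost without the replicates numbered 2 (0.1201) or 3 (0.0714). The call of TNS1 with GDF11 (log2 0.28, adjusted p = 0.038) was lost without MmC+/GDF11+ replicates 1 (0.0627), 2 (0.0756) or 3 (0.0605) or MmC-/GDF11+ replicates 3 (0.0668) or 4 (0.0901).

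Of 20 genes for other basement membrane proteins and their non-integrin receptors, 8 rose and 0 fell without GDF11 and 7 rose and 0 fell with GDF11, with medians of 0.33 and 0.23, against the same 22.9% and 22.4%, and 23.4% and 23.3%, of all genes. NID2, AGRN, COL15A1, NTN1, NTN4 and SDC4 were among those that rose in both. NID2, nidogen-2, which bridges laminin and collagen IV, went from 74.9 ± 23.4 to 195 ± 85 CPM (log2 1.38, adjusted p = 0.0068). The fit with the replicate number as a block called 14 of these genes for MmC without GDF11 in place of 8. Without the replicates numbered 1 it was 16, and without those numbered 2 or 3 it was 5. The counts of 14, 16 and 5 take higher and lower genes together, so they do not show that 0 fell in these fits.

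Of 23 tested genes for ligands of integrins other than laminins, 11 rose and 0 fell in each comparison, with medians of 0.66 and 0.61, beside 22.9% higher and 22.4% lower of all genes without and 23.4% and 23.3% with GDF11. Without IBSP and NPNT, which passed the filter on low counts only with the help of senescent libraries, it was 10 of 21 in each comparison. They were FN1, VTN, SPP1, THBS1, TGFBI, ICAM1, ICAM2, MADCAM1, LTBP1, VWF and IBSP. VTN, vitronectin, the ligand of the receptors built from alphaV with beta3 or beta5, went from 0.951 ± 0.766 to 9.41 ± 3.82 CPM (log2 3.32, adjusted p = 0.00011). ICAM1, the counter-receptor of the beta2 integrins, went from 42.6 ± 22.0 to 167 ± 86 CPM (1.97, adjusted p = 0.0031). With GDF11 the log2 changes of the 2 genes were 3.64 and 2.04. The endothelial markers PECAM1, CDH5, KDR, VWF and TEK, of which VWF is also on the ligand list, summed to 47.6 to 82.4 CPM in young and 54.4 to 111 CPM in senescent libraries, with single markers moving in both directions. PECAM1 rose (log2 1.27, adjusted p = 0.0097, and 1.19, adjusted p = 0.014 with GDF11), VWF rose (0.66, adjusted p = 0.027, and 0.61, adjusted p = 0.038), and KDR rose without GDF11 (2.67, adjusted p = 0.0011) and had 0.93 (adjusted p = 0.13) with it. TEK had 0.58 and 0.47 (adjusted p = 0.13 and 0.22), and CDH5, the defining cadherin of endothelium, fell (-1.51, adjusted p = 4.5e-06, and -1.49, adjusted p = 5.4e-06). The part of endothelial cells in the ligand values was not tested. For added GDF11, 0 genes of the 3 lists passed the test in young or senescent MSCs. In young MSCs, 1 of the 23 tested other ligands had an unadjusted p under 0.05, against 1.18% of all genes.

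**Figure D4:**
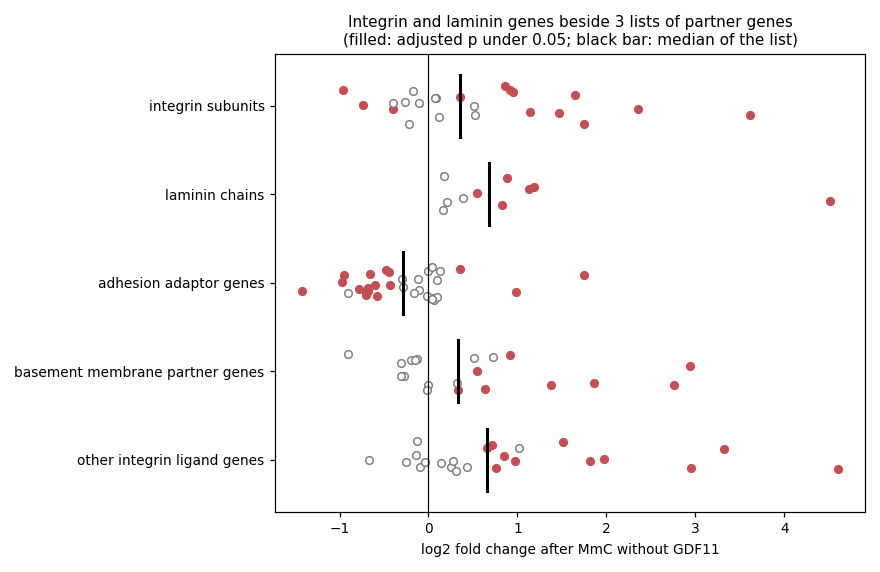
Log2 fold change after MmC without GDF11 (horizontal axis) of the tested integrin subunits (23), laminin chains (10), adaptor genes (32), basement membrane partners (20) and other ligands (23), 1 point per gene with random vertical offset, filled where the adjusted p was under 0.05, with the list's median as a black bar. The medians lie at 0.35, 0.68, -0.29, 0.33 and 0.66, and filled points left of 0 occur among the integrin subunits and the adaptor genes. The medians of the integrin subunits, laminin chains and other ligands include genes that passed the filter only with the help of senescent libraries.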

How the data were processed

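Reads were mapped by the authors to hg38 (HISAT2 2.2.1) and assigned to GENCODE genes (featureCounts 2.0.1), and the deposited values are raw counts per gene, not normalized. The labels place all libraries in sequencing run 73. The strand, read pair and multiple alignment settings and a test for differential expression are not given in the sources used here. Total counts were 71275337 to 144204979 per library.

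From the counts, edgeR 4.0.16 in R 4.3.3 fitted all 16 libraries with 1 mean per group after filterByExpr (minimum count 10, minimum total 15) and TMM scaling. The robust quasi-likelihood test was adjusted by Benjamini-Hochberg over 19103 genes at 0.05. MmC was tested in the presence and absence of GDF11, GDF11 was tested in both kinds of MSCs, and the interaction was tested as well. FPKM used the union of GENCODE v44 exons, a later release than the authors', on hg38. Positions came from the same release, and all 35 members matched. Promoter windows came from RefSeq. The 95% intervals of count ratios were exact and cover counting error only. The steps were tested on simulated data.

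The replicate numbers were checked for pairing by the correlation, across genes, of the deviations of same-numbered libraries from their group means. The lowest pair was at 0.221 for MmC without GDF11, 0.138 for GDF11 in young and 0.662 for GDF11 in senescent MSCs. The numbers were therefore taken to pair these libraries. Libraries with different numbers were not correlated, so there is no reference value for the absence of pairing. For MmC with GDF11, replicates 1, 2 and 4 were at 0.362, 0.249 and 0.357, and replicate 3 was at 0.0222. There the numbers pair the libraries except for replicate 3, where hardly any pairing was seen. Replicates of a group differed by 15.3 to 137 times the counting noise, so each was counted as 1 sample.

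Members and lists were chosen with earlier results of these data known. Values in every library are given for members called in both MmC comparisons without overlap and with at least 1 CPM, and for the most abundant members of each family. Those of ITGA4, ITGA6, ITGA11, ITGAV, ITGAX, ITGAE, ITGAM and ITGB8 were added after their values were seen. Of each partner list, up to 2 genes per direction with the largest changes, among those called in both MmC comparisons with at least 1 CPM, were named with values, and 1 gene so chosen and 1 cell type marker are not reported here. Alternatives were RLE scaling, no low-count filter, DESeq2 1.42.0, limma-voom (limma 3.58.1), a replicate block, only the libraries compared, another gene length and leaving out libraries.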

Additional observations from a re-analysis of the deposited data

Results flagged for a closer look

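In groups of 4 libraries, the gap of the most extreme library to its nearest neighbour was compared with Dixon's critical value for 132 sets of 1 of the 33 tested members and 1 group, and 15 sets exceeded it, where chance alone gives about 1 in 20. In 13 of the 15 the library standing apart was replicate 1. LAMC1 reached 1767 CPM in replicate 1 of MmC+/GDF11- (others 1111 to 1188) and 1612 CPM in replicate 1 of MmC+/GDF11+ (others 1118 to 1179). LAMB2 reached 511.6 CPM in replicate 1 of MmC-/GDF11- (others 310.7 to 327.8) and 550.9 CPM in replicate 1 of MmC+/GDF11- (others 378.3 to 388.3). ITGA5 had 643.6 CPM in replicate 1 of MmC+/GDF11+ (others 435.9 to 464.2). ITGA6 had 50.68 CPM in replicate 1 of MmC+/GDF11- (others 29.3 to 30.95). ITGA11 had 175.8 CPM in replicate 1 of MmC-/GDF11- (others 60.32 to 74.18), 135 CPM in that of MmC-/GDF11+ (others 60.08 to 71.26) and 110.3 CPM in that of MmC+/GDF11- (others 64 to 71.6). ITGAE had 13.03 CPM in replicate 1 of MmC+/GDF11- (others 7.654 to 8.373) and 12.57 CPM in replicate 1 of MmC+/GDF11+ (others 7.191 to 7.787). ITGB2 had 0.6107 CPM in replicate 1 of MmC-/GDF11- (others 0.4587 to 0.4658), and LAMC3 had 0.0139 CPM, a single count, in replicate 1 of MmC-/GDF11+ (others 0). The remaining sets were ITGA2 in replicate 4 of MmC-/GDF11+, at 9.325 CPM (others 6.169 to 6.531), and ITGB8 in replicate 4 of MmC+/GDF11+, at 71.54 CPM (others 33.01 to 34.47).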

How the results depend on the processing

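The count of members higher after MmC moved by less than 1.5 times under RLE scaling, no low-count filter, DESeq2, limma-voom, the replicate block and the fit of only the libraries compared. Leaving out 1 replicate number gave 12 to 19 higher and 1 to 5 lower without GDF11, and 13 to 17 higher and 2 to 5 lower with GDF11. Over all genes it gave 2885 to 5059 higher and 2605 to 4945 lower without GDF11, and 2973 to 5098 and 2532 to 5066 with it. It gave 12 to 19 and 12 to 20 adaptor genes, 5 to 16 and 6 to 13 basement membrane partners, and 10 to 14 and 8 to 13 other ligands, without and with GDF11. The counts of these 3 lists take higher and lower genes together. It gave 0 members for GDF11 in young and senescent MSCs and for the interaction. With the replicate block, 14 basement membrane partners were called in either direction without GDF11 and 14 with GDF11. For MmC with GDF11, where replicate 3 showed hardly any pairing, the block gave 21 members higher, LAMA2, LAMA3, LAMB1 and LAMB2 in addition. Over all 19103 genes the block gave 5595 higher there. Other counts moved by less than 1.5 times. On the longest transcript in place of the union of exons, ITGB1 held 83.31% and 78.0% of beta subunit RNA, ITGA5 40.71% and 35.18% of alpha subunit RNA, in MmC-/GDF11- and MmC+/GDF11-, and LAMA4 78.29% of laminin alpha RNA in MmC-/GDF11-. The order of LAMB1 and LAMB2 was reversed by this length, with LAMB1 above. Under the alternatives that leave out no chosen replicate, calls were lost for ITGA3 and ITGB1, as given above, and with no low-count filter for ITGAV (adjusted p = 0.1088) and TNS1 (0.0673), all in edgeR. Leaving out all replicates of 1 number also ended the calls of ITGA6 (without those numbered 3 or 4, 0.0658 and 0.0670), LAMA4 (3 or 4, 0.0715 and 0.0904), LAMA5 (2, 0.0502), NID2 (2 or 3, 0.0633 and 0.0589) and TNS1 (2 or 3, 0.1201 and 0.0714) without GDF11, and with GDF11 those of ITGA6 (4, 0.0538), ITGAE (2 or 3, 0.0513 and 0.122), ITGAX (2 or 3, 0.108 and 0.0752), LAMA5 (3, 0.0676) and NID2 (3, 0.0538). Without GDF11 the same held for ITGAL (2 or 3, 0.0831 and 0.0584) and ITGAX (2, 3 or 4, 0.113, 0.0646 and 0.0733). ITGA3 and ITGB1 lost their calls there without those numbered 2, 3 or 4 (0.182, 0.186, 0.333 and 0.0713, 0.109, 0.0599). With GDF11 both lost them likewise (0.0988, 0.127, 0.0976 and 0.0911, 0.193, 0.0594). ITGAV (3 or 4, 0.208 and 0.118) and TNS1 (2 or 3, 0.099 and 0.149) also lost theirs with GDF11. The cause of these changes was not tested.

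Some values that passed no test changed sign when libraries were left out. For MmC without GDF11 the log2 change ranged from -0.3142 to 0.5999 for ITGA2B, from -0.4707 to 0.2539 for ITGA11, from -0.02313 to 0.2576 for ITGB4, from -0.2212 to 0.3299 for ITGB8 and from -0.05001 to 0.4578 for LAMA2. With GDF11 it ranged from -0.5772 to 0.1589 for ITGA2B, from -0.1595 to 0.1242 for ITGA10, from -0.2691 to 0.2184 for ITGA11, from -0.1698 to 0.06958 for ITGB4, from -0.3097 to 0.08044 for ITGB7 and from -0.2289 to 0.3628 for ITGB8. For GDF11 in senescent MSCs it ranged from -0.3316 to 0.01148 for ITGB7 and from -0.2535 to 0.0213 for LAMA5.

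Members under 1 CPM rest on few counts, and the SE of about 0.20 on the log2 scale (0.134 with the replicate block) limits what can be seen of smaller changes.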
